A study of Mus musculus with 2 samples.

Results

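The genes described here are the epithelial splicing regulators Esrp1 and Esrp2 and 5 genes known as targets of epithelial splicing: the fibroblast growth factor receptor gene Fgfr2, the hyaluronan receptor gene Cd44, the p120-catenin gene Ctnnd1, the actin regulator gene Enah and the guanine nucleotide exchange factor gene Arhgef11. The 7 genes were chosen by name, and they stand for 7 of the 43346 Ensembl genes and 102 of the 103639 Ensembl transcripts quantified. The tissue was small intestine of C57BL/6J mice aged 8 weeks, with no treatment, genotype or intestinal segment given. RNA of male and female littermates was pooled, so a library does not stand for a single animal. The 2 libraries, called replicate 1 and replicate 2, form 1 group, come from separate tissue samples and were made from polyadenylated RNA longer than 200 nt, read as stranded pairs of 76 nt. With no second group, every comparison below is between isoforms, between genes or between these libraries, and none carries a test between conditions. Means are given ± SD with n = 2, and a bracketed interval is the deposited credibility interval of a library, whose level is not stated.

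Esrp1 and Esrp2 are RNA-binding proteins made in epithelial cells. They bind pre-mRNA next to alternative exons and steer splicing toward the epithelial forms, and they are lost when cells turn mesenchymal. In Fgfr2 this choice is between mutually exclusive exons for the third immunoglobulin domain: the IIIb form, made by epithelium, answers to ligands from the mesenchyme such as Fgf7 and Fgf10, and the IIIc form, made by mesenchyme, answers to another set of ligands. In Cd44 the epithelial forms hold variable exons in the extracellular stem, and the standard form holds none. In Ctnnd1, skipping of early exons moves translation from the full-length start of isoform 1, typical of mesenchymal cells, to the later start of isoform 3, typical of epithelium. In Enah a small cassette called exon 11a is included in epithelial cells. Arhgef11 activates RhoA downstream of G proteins, and its late cassette, exon 38, is skipped in epithelial cells.

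The exons that tell the forms apart are shown first, from the GENCODE M21 transcripts (GRCm38), because the shares below rest on them. The IIIb exon of Fgfr2 (chr7:130199758-130199905, minus strand, 148 nt) is coding, and it is in capitals between 15 bases of each neighbour in the spliced transcript.
Fgfr2 IIIb exon: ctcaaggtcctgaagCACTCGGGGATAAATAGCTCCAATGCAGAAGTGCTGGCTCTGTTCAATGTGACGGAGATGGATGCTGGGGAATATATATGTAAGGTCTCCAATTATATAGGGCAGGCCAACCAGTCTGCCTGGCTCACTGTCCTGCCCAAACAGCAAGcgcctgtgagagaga
No transcript of the annotation holds both the IIIb and the IIIc exon.

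Of the 10 variable exons of Cd44, the last 3, v8, v9 and v10, are shown because they make up the insert of Cd44-205. They lie at chr2:102834234-102834335 (102 nt), chr2:102832483-102832572 (90 nt) and chr2:102831330-102831536 (207 nt) on the minus strand. The exon is in capitals, between 15 bases of each neighbour in the spliced transcript.
Cd44 v8: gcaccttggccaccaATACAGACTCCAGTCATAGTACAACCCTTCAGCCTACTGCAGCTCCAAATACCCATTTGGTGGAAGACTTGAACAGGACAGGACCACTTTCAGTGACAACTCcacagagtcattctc
Cd44 v9: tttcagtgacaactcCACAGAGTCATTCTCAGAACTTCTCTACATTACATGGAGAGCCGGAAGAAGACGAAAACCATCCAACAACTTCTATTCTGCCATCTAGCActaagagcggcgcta
Cd44 v10: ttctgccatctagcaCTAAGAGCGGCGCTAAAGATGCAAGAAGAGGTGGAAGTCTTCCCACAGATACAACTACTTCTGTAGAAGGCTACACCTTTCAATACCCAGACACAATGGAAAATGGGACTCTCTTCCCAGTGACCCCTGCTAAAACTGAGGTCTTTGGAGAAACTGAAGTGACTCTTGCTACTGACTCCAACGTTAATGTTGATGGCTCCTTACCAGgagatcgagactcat
Each of the 10 variable exons is a whole number of codons long, so any combination of them stays in frame.

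For Ctnnd1 the 3 start codons (capitals) are shown with the coding bases after them, because the start defines the isoform. They lie on the minus strand at chr2:84624432-84624464, chr2:84624270-84624302 and chr2:84620919-84620951, and correspond to codons 1, 55 and 102 of isoform 1.
Ctnnd1 isoform 1 start: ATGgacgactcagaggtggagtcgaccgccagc
Ctnnd1 isoform 2 start: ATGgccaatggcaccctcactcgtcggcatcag
Ctnnd1 isoform 3 start: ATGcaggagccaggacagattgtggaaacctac
Near the end of the coding sequence, exon B (chr2:84603188-84603274, minus strand, 87 nt) separated the most abundant isoform 3 transcript from the most abundant isoform 1 transcript. It is in capitals between 15 bases of each neighbour.
Ctnnd1 exon B: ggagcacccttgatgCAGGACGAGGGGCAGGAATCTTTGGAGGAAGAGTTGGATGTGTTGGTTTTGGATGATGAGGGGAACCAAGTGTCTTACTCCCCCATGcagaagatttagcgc

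Exon 11a of Enah (chr1:181911597-181911659, minus strand, 63 nt, 21 codons) is held by a single annotated transcript, Enah-202. The cassette of Arhgef11 that set its most abundant transcript apart (chr3:87722357-87722483, plus strand, 127 nt) is not a whole number of codons. Both are in capitals between 15 bases of each neighbour.
Enah exon 11a: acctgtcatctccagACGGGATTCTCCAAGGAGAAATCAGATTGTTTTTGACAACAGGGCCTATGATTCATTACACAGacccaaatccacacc
Arhgef11 cassette: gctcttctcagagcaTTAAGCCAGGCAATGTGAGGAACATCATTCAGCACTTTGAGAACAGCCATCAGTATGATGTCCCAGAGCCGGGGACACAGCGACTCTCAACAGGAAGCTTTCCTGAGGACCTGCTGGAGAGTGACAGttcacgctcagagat

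In 2 of the target genes an abundant transcript leaves out an exon and shifts the frame. Fgfr2-226 holds neither IIIb nor IIIc, and Arhgef11-205 lacks the 127-nt cassette. The last 15 bases before each new junction are followed by the next exon up to 6 bases past the first stop codon in frame, which is in capitals.
Fgfr2-226 junction: ctcaaggtcctgaagcgcctgTGAgagaga
Arhgef11-205 junction: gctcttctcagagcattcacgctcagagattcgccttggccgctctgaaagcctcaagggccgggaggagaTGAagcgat
The exons entered lie at chr7:130196172-130196374 (minus strand) and chr3:87725479-87725658 (plus strand). The stop ended 9 nt after the junction in Fgfr2-226, with 9 exon junctions after it, and 59 nt after the junction in Arhgef11-205, with 18 exon junctions after it. The annotation gives both transcripts as targets of nonsense-mediated decay, the pathway that degrades mRNA with a stop codon upstream of exon junctions.

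**Figure D1:**
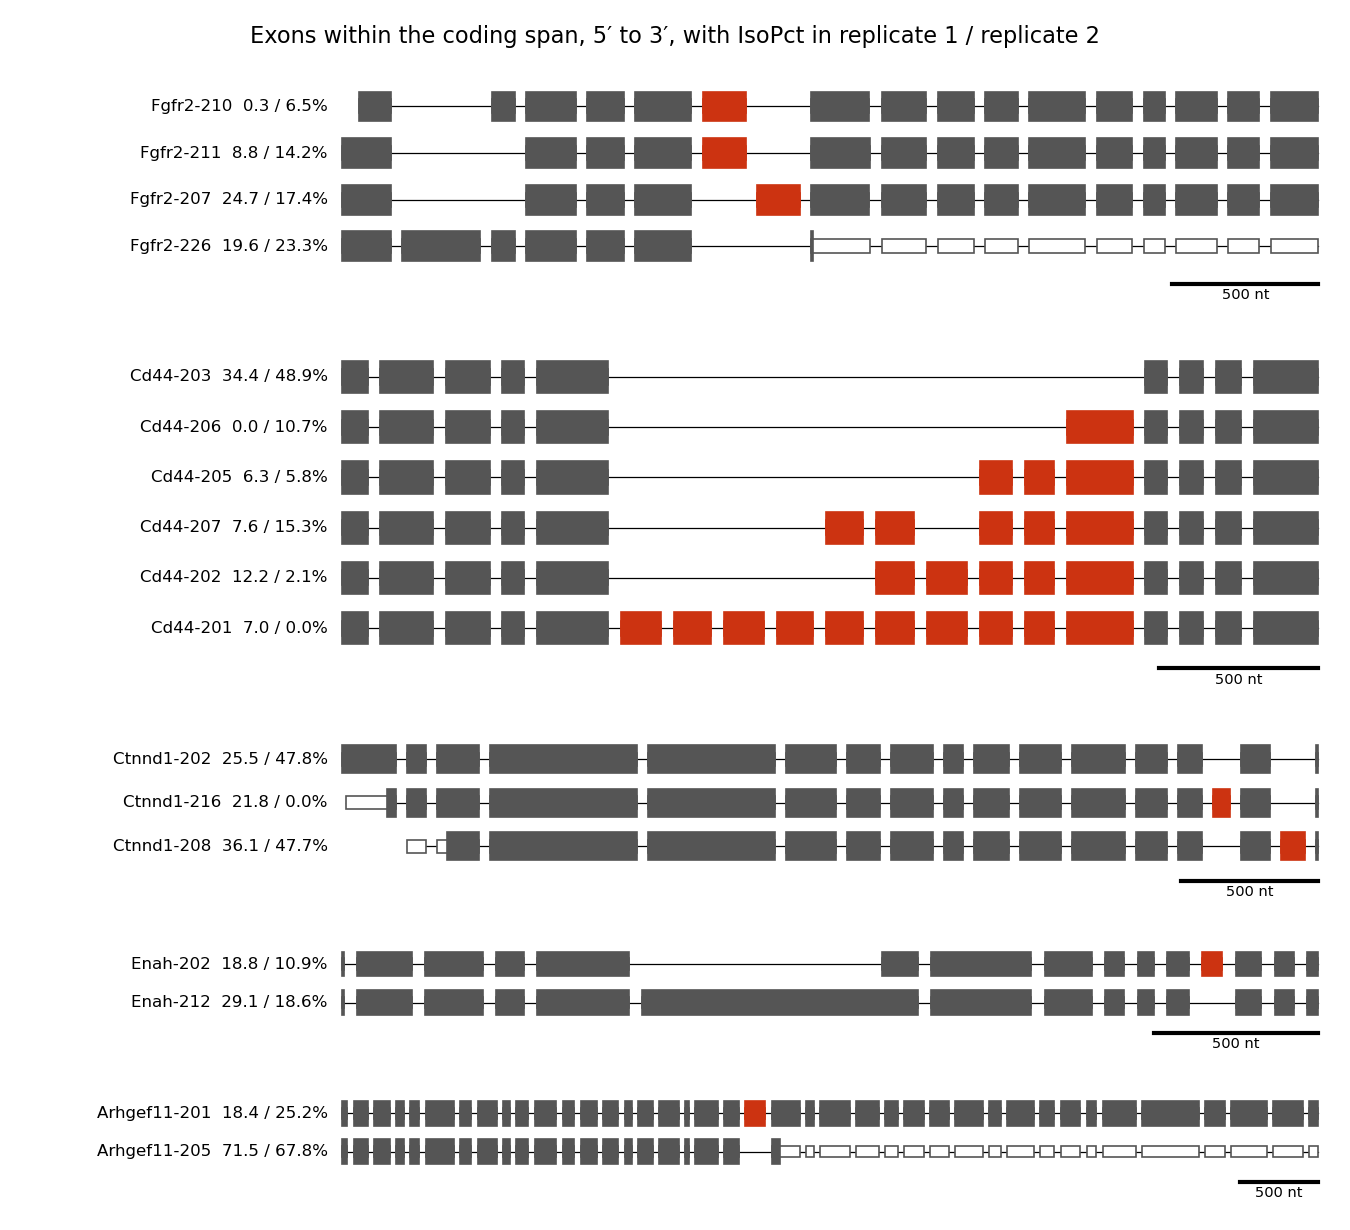
Exons of the main transcripts within each gene's coding span, 5′ to 3′ and to scale within a gene (bar, 500 nt), with introns drawn at 1 fixed width. Tall filled blocks are coding, low open blocks are not, red marks the alternative exons, and the numbers are IsoPct in replicate 1 and replicate 2. Fgfr2-226 and Arhgef11-205 lose their coding blocks shortly after the left-out exon.

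The libraries differed in their makeup, which bears on every comparison between them. They held 45472946 and 45822403 expected counts. Genes of the exocrine pancreas and stomach lists, 24 genes in all, made up 29.2% of the summed TPM of replicate 1 and 0.184% of that of replicate 2. TPM, the unit of the levels, is a length-corrected share of a fixed total, so other genes had less room in replicate 1: the median of 12260 genes with a mean of at least 1 TPM lay 0.66 higher in replicate 2 on the log2(TPM + 1) scale, and 0.24 higher once TPM was rescaled to genes outside both lists and outside spike-ins. Differences between the libraries are therefore given also relative to the median gene. The 10 epithelial markers, among them Krt8 (1172 and 3518 TPM in replicates 1 and 2), Krt19 (972 and 1888 TPM) and Cldn3 (837 and 2005 TPM), summed to 2.78 times as much TPM in replicate 2. The 8 fibroblast markers, led by Vim (210 and 235 TPM), summed to 1.12 times as much, and the 6 smooth muscle markers, led by Acta2 (454 and 411 TPM), to 0.887 times. All 10 epithelial, all 8 fibroblast and all 6 smooth muscle markers had a mean of at least 1 TPM. In bulk tissue, fewer cells of a type and less RNA per cell cannot be told apart. Whether RNA from pancreas or stomach contributed to the values below was not tested.

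Both regulators were present in both libraries, and Esrp2 was the more abundant. Esrp2 was at 22.05 TPM [21.3 to 24.2] in replicate 1 and 25.30 TPM [24.2 to 27.9] in replicate 2, a mean of 23.7 ± 2.3 TPM. Esrp1 was at 4.35 TPM [4.1 to 4.94] and 10.26 TPM [9.7 to 11.1], a mean of 7.3 ± 4.18 TPM. Every Esrp2 value exceeded every Esrp1 value, and the intervals of the genes lay apart in each library. Esrp2 made up 83.5% of the summed TPM of the pair in replicate 1 and 71.1% in replicate 2, and it stood 5.07 and 2.47 times above Esrp1. Among the genes with a mean of at least 1 TPM, Esrp2 ranked at percentile 70.7 and Esrp1 at percentile 44.

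**Figure D2:**
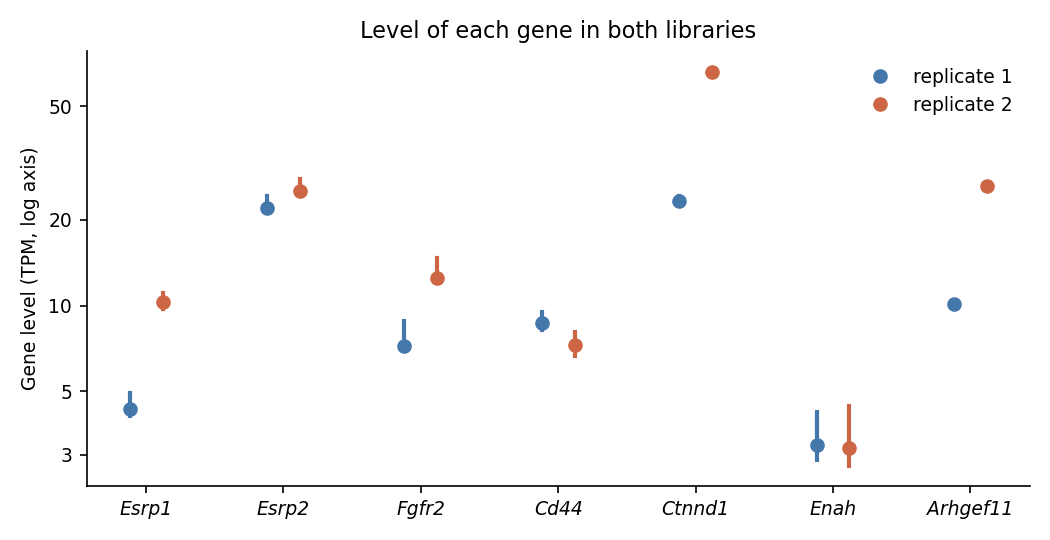
Level of each gene in TPM (log axis) in replicate 1 (blue) and replicate 2 (orange); points are the deposited estimates and bars the deposited credibility intervals. Ctnnd1 had the highest level of the 7 genes in both libraries and Enah the lowest, and the intervals of the libraries overlapped for Esrp2 and Enah only.

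The regulators did not move alike between the libraries. On the log2(TPM + 1) scale Esrp1 lay 1.07 higher in replicate 2, which is 0.41 above the median gene. Esrp2 lay 0.19 higher, which is -0.47 relative to the median gene. After rescaling, Esrp1 was at 6.25 and 10.4 and Esrp2 at 31.7 and 25.7 rescaled TPM, so the order of the libraries turned for Esrp2 and held for Esrp1. The 10 epithelial markers had a median of 1.51 on the same scale, 0.84 above the median gene. The difference in Esrp1 was thus smaller than the median of the epithelial markers, and that in Esrp2 was smaller still.

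The Esrp1 transcripts shared their level among 4 models. Esrp1-203 held 44.4% and 25.5% of the Esrp1 TPM in replicates 1 and 2. Esrp1-204 held 28.0% and 38.2%, Esrp1-201 held 13.8% and 17.2%, and Esrp1-206, whose annotated 5′ end is incomplete, held 13.5% and 18.9%. Esrp1-203 was the largest in replicate 1 and Esrp1-204 in replicate 2. The credibility intervals of Esrp1-203 overlapped between the libraries (1.58 to 2.18 and 2.05 to 2.98 TPM). Those of Esrp1-204 lay apart (0.944 to 1.46 and 3.34 to 4.44 TPM), as did those of Esrp1-201 and Esrp1-206. These models differ in 3 places in the later part of the transcript: a 199-nt exon that is 12 nt longer than its 187-nt form (35 ± 13.3% of the TPM of these models), a 151-nt exon that Esrp1-204 and Esrp1-206 lack (included in 50.6 ± 10.9%), and the choice of last exons (51.3 ± 9.61% with the 110-nt last but one exon of Esrp1-203). Esrp2 was simpler. Its protein-coding transcript Esrp2-201 held 84.0% and 79.0% of the Esrp2 TPM, at 18.52 and 19.99 TPM, and all others with at least 5% in either library were retained introns, namely Esrp2-205 (8.68% and 6.24%) and Esrp2-208 (1.67% and 6.22%).

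Fgfr2 was made in both forms in both libraries. The transcripts with the IIIb exon reached 0.87 TPM in replicate 1 against 2.77 TPM in replicate 2, and those with the IIIc exon 2.30 and 2.58 TPM. By TPM, IIIb was below IIIc in replicate 1 and slightly above it in replicate 2. Of the TPM of both forms, IIIb made up 27.4% and 51.8%, a mean of 39.6 ± 17.2%. By rounded expected counts, 116 of 559 fragments in replicate 1 went to IIIb (20.8%, exact 95% interval 17.5% to 24.4%) and 276 of 669 in replicate 2 (41.3%, 37.5% to 45.1%). Intervals of this kind cover counting error only, since fragments were assigned to whole transcripts by a model and most do not touch the alternative exon. The count intervals of the libraries did not overlap. By counts IIIb was below IIIc in both libraries, but counts weigh long transcripts more and the IIIb models with TPM were shorter. Fgfr2-211, Fgfr2-210 and Fgfr2-208 measure 3053, 2196 and 2296 nt, against 4223 nt for Fgfr2-207 and 3323 nt for Fgfr2-215 of IIIc. By TPM with only complete coding transcripts the IIIb share was 21.5% and 40.8%. That filter removed Fgfr2-210 and Fgfr2-208 but no IIIc model with TPM. Both settings thus lower IIIb by construction and cannot decide the order in replicate 2.

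The level of the IIIb form was 3.18 times as high in replicate 2, against 1.12 times for IIIc. Beside them, the epithelial markers summed to 2.78 times and the fibroblast markers to 1.12 times as much. After rescaling, these 4 ratios were 2.25 for IIIb, 0.794 for IIIc, 1.97 for the epithelial markers and 0.796 for the fibroblast markers, so IIIc and the fibroblast markers turned to the other side of 1. Whether cell makeup set the IIIb share was not tested. On the log2(TPM + 1) scale IIIb lay 0.35 above the median gene and IIIc at -0.55 relative to it. The added 1 TPM shrinks the ratios of forms as low as these on that scale. The IIIb form came from 3 of its 10 transcripts: Fgfr2-211 at 0.63 and 1.78 TPM, Fgfr2-210 at 0.02 and 0.81 TPM, and Fgfr2-208 at 0.22 and 0.18 TPM. The IIIc form came from Fgfr2-207 at 1.78 and 2.18 TPM and Fgfr2-215 at 0.52 and 0.40 TPM. Fgfr2-211 carried most of the IIIb form, and its deposited length (3053 nt) differs from that in the M21 annotation (4311 nt), so its exons in the deposited model may differ from those drawn. Without it, the IIIb share was 9.45% and 27.7%, still the lower in replicate 1.

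A further Fgfr2 transcript, Fgfr2-226, which holds neither exon, was at 1.42 and 2.92 TPM, 19.6% and 23.3% of the gene. Its level was thus of the order of those of the coding forms. The retained-intron model Fgfr2-221 held 22.7% and 24.0%. In all, 36.2% and 34% of the Fgfr2 TPM came from transcripts that were assigned to none of these forms. Fgfr2-222 and Fgfr2-225, also retained introns, stood at 6.13% and 3.63%, and at 5.32% and 3.68%. Fgfr2 as a whole was at 7.21 and 12.54 TPM, 0.06 above the median gene on the log2 scale. Of the other receptors, Fgfr3 was at 14.8 and 28.3 TPM, Fgfrl1 at 7.86 and 19.8 TPM and Fgfr1 at 8.95 and 9.31 TPM, with Fgfr3 the highest in both libraries. Ligands of both forms were low. Of the 5 ligands listed for IIIb, Fgf1, which binds both forms, was at 1.99 and 1.8 TPM and Fgf7 at 0.83 and 1.32 TPM, while Fgf10 was at 0.27 and 0.1 TPM and Fgf3 at 0.05 and 0.15 TPM, and Fgf22 was listed at 0 in both. Of the 9 ligands listed for IIIc, 8 were under 1 TPM in both libraries, and Fgf2 was at 1.1 and 1.15 TPM.

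**Figure D3:**
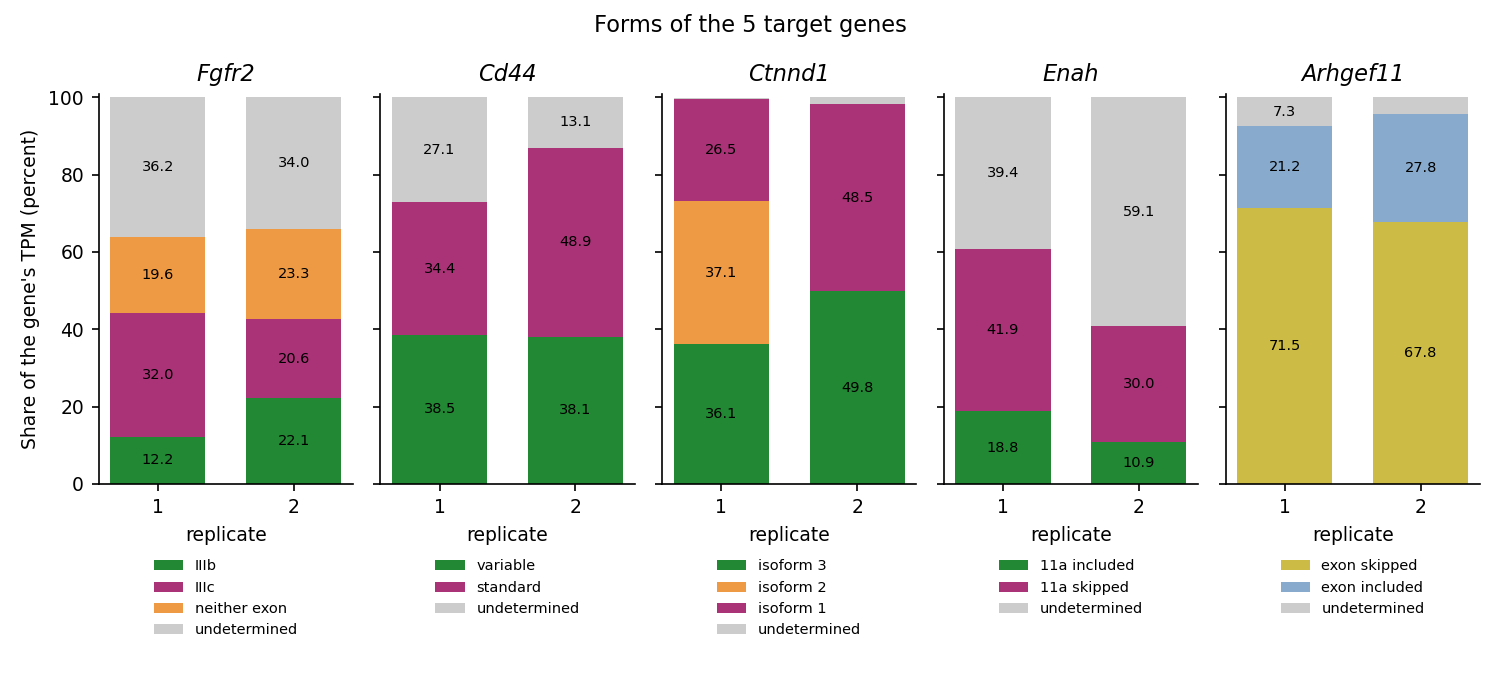
Share of each target gene's TPM (percent) by form in replicate 1 and replicate 2. Green marks the form described for epithelium, purple the form described for mesenchyme and orange a further form. Yellow and blue mark Arhgef11 without and with its 127-nt cassette, and grey the transcripts not assigned to a form. The green share of Fgfr2 was 12.2% and 22.1%, and that of Cd44 38.5% and 38.1%.

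Cd44 was split almost evenly between variable-exon and standard transcripts. The 7 transcripts with variable exons summed to 3.35 and 2.77 TPM, and the single standard transcript, Cd44-203, was at 2.99 and 3.56 TPM. The variable share of both was 52.8% and 43.8%, a mean of 48.3 ± 6.42%. By counts it was 576 of 974 fragments (59.1%, 56% to 62.2%) and 308 of 676 (45.6%, 41.8% to 49.4%). The variable forms were the larger in replicate 1 and the smaller in replicate 2. The credibility intervals of Cd44-203 overlapped between the libraries (2.47 to 3.42 and 2.97 to 3.97 TPM). Its last exon is 1791 nt, against 3197 nt in Cd44-201 and Cd44-207, 1808 nt in Cd44-202 and 218 nt in Cd44-205. How much of the split came from such differences was not tested.

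The variable transcripts were of 7 kinds, and for 5 of them the credibility intervals of the libraries overlapped. Cd44-202, with v6 to v10, was at 1.06 and 0.15 TPM, and Cd44-201, with all 10 variable exons, at 0.61 and 0 TPM, and these are the 2 whose intervals lay apart. Cd44-207, with v5, v6, v8, v9 and v10, was at 0.66 and 1.12 TPM, and Cd44-206, with v10 alone, was listed at 0 TPM in replicate 1 and at 0.78 TPM in replicate 2, with overlapping intervals for each. Cd44-205, with v8 to v10, the combination known as the epithelial form CD44E, was at 0.55 and 0.42 TPM, and Cd44-208, with v4 to v10, at 0.30 TPM in both. Exon v10 was in every variable transcript and so in 48.3 ± 6.42% of the assigned TPM, v9 in 42.1 ± 15.1% and v8 in 40.8 ± 13.2%. Inclusion was lower toward the 5′ end of the variable region: v5 was in 23.6 ± 1.65%, v4 in 9.55 ± 6.8%, and v1 to v3 in 9.62% in replicate 1 and 0% in replicate 2. Exon v7 broke that order, at 31.1% and 7.11%, below v6 at 41.5% and 24.8% in both libraries.

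**Figure D4:**
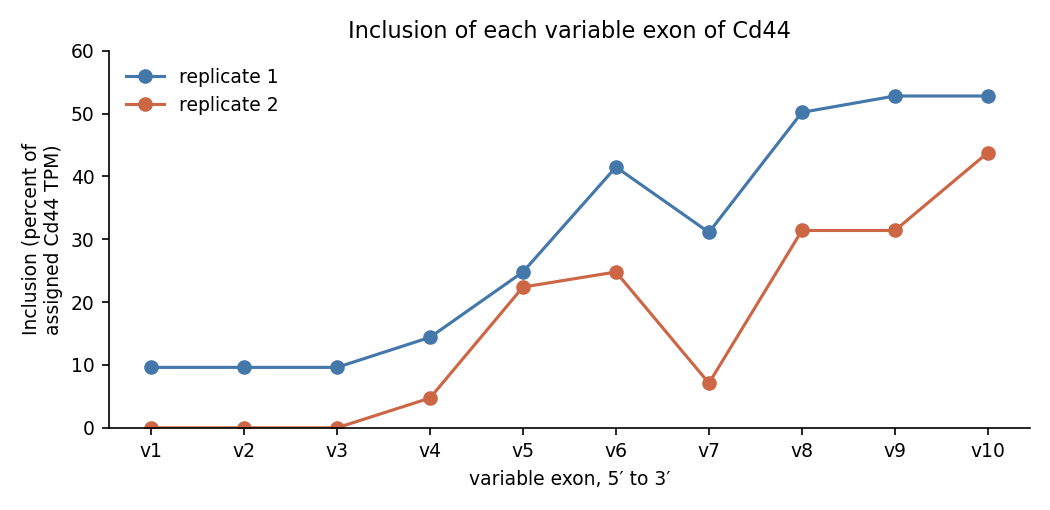
Inclusion of each variable exon of Cd44, as a percent of the TPM of its standard and variable transcripts, from v1 to v10 (5′ to 3′), in replicate 1 (blue) and replicate 2 (orange). Inclusion of v10 was 52.8% and 43.8%, equal to v9 in replicate 1 and highest in replicate 2, and it was lower at v7 than at v6 and v8 in both libraries.

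Cd44 as a whole was at 8.70 and 7.28 TPM, and it was 1 of 2 genes among the 7, with Enah, that was not higher in replicate 2 by TPM. After rescaling it was at 12.5 and 7.41. It lay at -0.89 relative to the median gene. On that scale the marker medians were -0.88 for smooth muscle, -0.54 for fibroblasts, -0.04 for leukocytes and 0.84 for epithelium. Whether cell makeup set the Cd44 level was not tested. The retained-intron model Cd44-209 took 27.1% and 13.1% of the Cd44 TPM and was assigned to neither form. Among genes of Cd44 function, Ezr, which links Cd44 to actin, was at 76.2 and 302 TPM, and its relative Msn at 7.22 and 10.5 TPM. Spp1, the gene of the Cd44 ligand osteopontin, went the other way, at 9.63 and 0.26 TPM. Of the 8 genes in this list, 4 had a mean of at least 1 TPM. Of these 4, 1 (Ezr) was over 2-fold higher in replicate 2, where 24.9% of all genes were. In replicate 1 it was 1 (Spp1), where 3.12% of all genes were. The hyaluronan synthase genes were low, with Has1 at 0.23 and 0.14 TPM, Has2 at 0.1 and 0.08 TPM and Has3 at 0.13 and 0.43 TPM.

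Ctnnd1 was the most abundant of the 7 genes, at 23.31 and 65.84 TPM, and was made with both the short and the full-length N-terminus. Isoform 3, the short form described for epithelium, reached 8.43 TPM in replicate 1 against 32.80 TPM in replicate 2, and isoform 1 reached 6.19 and 31.93 TPM. Isoform 3 was slightly the larger in both libraries. Of both, it made up 57.7% and 50.7%, a mean of 54.2 ± 4.94%, and by counts 2380 of 3900 fragments (61%, 59.5% to 62.6%) and 7201 of 13274 (54.2%, 53.4% to 55.1%). Isoform 2, which starts at codon 55, was at 8.63 TPM in replicate 1 and listed at 0 in replicate 2. Counted as long, it would take the isoform 3 share of replicate 1 to 36.3%, and counted as short to 73.4%, so the order of the libraries rests on where isoform 2 is placed.

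Few models carried these values. Isoform 3 was nearly all Ctnnd1-208 (8.43 and 31.43 TPM, 36.1% and 47.7% of the gene), and isoform 1 nearly all Ctnnd1-202 (5.95 and 31.46 TPM, 25.5% and 47.8%). Ctnnd1-208 and Ctnnd1-202 differ also in their first exon (340 and 105 nt) and last exon (2833 and 2121 nt). How much of the split came from those differences was not tested. Isoform 2 in replicate 1 came from Ctnnd1-216 (5.07 TPM, interval 0.489 to 5.47), Ctnnd1-213 (2.64 TPM, 0.705 to 4.26) and Ctnnd1-211 (0.92 TPM, 0.0171 to 5.21). The intervals of the isoform 2 models were wide, and the upper bounds of these in replicate 2 were 0.445, 0.562 and 0.541 TPM. Exon B, which is present in Ctnnd1-208 and absent from Ctnnd1-202, was included in 51.6% and 50.5% of the Ctnnd1 TPM with a known start, so the share of exon B and that of the start rest largely on the same pair of models and are not separate measurements. Exon A (63 nt), held by Ctnnd1-216 and Ctnnd1-213, was included in 33.6% and 2.12%, and the 18-nt exon C in 4.99% and 0.896%.

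Isoform 3 was 3.89 times and isoform 1 was 5.16 times as high in replicate 2, and 2.75 and 3.65 times after rescaling. The gene lay 0.80 above the median gene on the log2 scale, beside a median of 0.84 for the epithelial markers. Of its cadherin and catenin partners, Jup, the plakoglobin gene, was at 203 and 566 TPM, Ctnnb1, the β-catenin gene, at 109 and 187 TPM, and Cdh1, the E-cadherin gene that p120 stabilises at the membrane, at 71 and 193 TPM. The list held 11 cadherins, catenins and relatives of p120, 9 of them with a mean of at least 1 TPM. Of these 9, 5 were over 2-fold higher in replicate 2, where 24.9% of all genes were. None was over 2-fold higher in replicate 1, where 3.12% were. After rescaling none passed either way, against 13.2% of all genes. The N-cadherin gene Cdh2 was at 0.18 and 0.43 TPM, and Ctnnd2, a neural relative of Ctnnd1, at 0.86 and 0.7 TPM.

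Enah was the lowest of the 7 genes, and the transcripts that show the choice mostly lacked exon 11a. Enah-202, which alone holds it, was at 0.61 TPM [0.386 to 0.749] in replicate 1 and 0.34 TPM [0.124 to 0.485] in replicate 2. The transcripts without it summed to 1.36 and 0.95 TPM. The 11a share was 31% and 26.4%, a mean of 28.7 ± 3.26%. By counts it was 104 of 419 fragments (24.8%, 20.8% to 29.2%) and 46 of 233 (19.7%, 14.8% to 25.4%), and here the count intervals of the libraries overlapped. Skipping was thus the larger form in both libraries. The largest skipping model, Enah-212, differs from Enah-202 also in an earlier internal exon and in its last exon (385 and 1498 nt). How much of the split came from those differences was not tested.

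At these levels single models were poorly resolved. Enah-212, the largest of the skipping models, was at 0.95 and 0.59 TPM, above its own credibility intervals, which ended at 0.751 and 0.445 TPM. Enah-211 was at 0.31 and 0.27 TPM. Enah-209, a 687-nt model of 3 exons that was assigned to neither form, held 38.6% and 48.5% of the Enah TPM on 28.86 and 28.32 fragments. Enah-207, a retained intron, held 0% and 6.69%. Enah as a whole, at 3.25 and 3.16 TPM, lay at -0.69 relative to the median gene. Among proteins of its family and its actin partners, Pfn1, the profilin gene, was at 1861 and 4632 TPM and Vasp at 122 and 371 TPM, far above Enah in both libraries. Zyx, the zyxin gene, was at 76.3 and 154 TPM.

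Arhgef11 could not be read for exon 38, because the full-length models do not differ in the internal exons late in the gene that they span. Whether these models hold or lack exon 38 was not determined. After the 127-nt cassette, which is exon 21 of the 40 exons of Arhgef11-201, all 18 internal exons are in Arhgef11-205 with the same ends, and the next full-length model, Arhgef11-202, holds 17 of them before its annotated end. What the tables do show is the cassette itself. Arhgef11-205, which lacks it, was at 7.27 TPM [6.72 to 7.68] and 17.83 TPM [16.5 to 18.5], 71.5% and 67.8% of the gene. Arhgef11-201, which holds it, was at 1.87 and 6.63 TPM, 18.4% and 25.2%, and Arhgef11-202, which also lacks an early exon of 120 nt, at 0.29 and 0.68 TPM.

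Of the full-length transcripts, 77.1% and 70.9% of the TPM lacked the cassette, a mean of 74 ± 4.36%. By counts this was 2177 of 2879 fragments (75.6%, 74% to 77.2%) and 4147 of 6004 (69.1%, 67.9% to 70.2%). The most abundant Arhgef11 transcript in both libraries was therefore the model with the early stop shown above, whose reading frame ends after 608 codons. Arhgef11-205 and Arhgef11-201 differ also in their first exon (692 and 1218 nt), and how much of the split came from that difference was not tested. The 120-nt early exon was in 96.9% and 97.3% of the full-length TPM.

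Arhgef11 as a whole was at 10.17 and 26.29 TPM, 0.62 above the median gene. Its relative Arhgef1 was at 84.2 and 167 TPM, and Arhgef12, a close relative, at 2.88 and 5.63 TPM. Gna13, which encodes a G protein subunit that activates these factors, was at 31.4 and 51.5 TPM, and Rhoa, their substrate, at 24.5 and 57.5 TPM. Tjp1, the gene of the tight junction protein ZO-1 that Arhgef11 binds, was at 3.68 and 10.8 TPM. Of the 9 genes in this list, Arhgef11 included, 4 were over 2-fold higher in replicate 2 (24.9% of all genes) and none over 2-fold higher in replicate 1 (3.12% of all genes), and rescaling left none (13.2% of all genes either way).

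All 7 genes had a mean of at least 1 TPM, so all could be set against the other genes at that level. Esrp1, Ctnnd1 and Arhgef11 passed 2-fold toward replicate 2 with 1 TPM added to each value, 3 of 7 genes, where 24.9% of 12260 genes were. None of the 7 was 2-fold higher in replicate 1, where 3.12% were, and 28.0% of all genes passed in either direction. After rescaling, none of the 7 passed in either direction, against 13.2% of 12664 genes, and of all genes that passed, 63.4% were higher in replicate 2 in place of 88.9%. The counts over 7 genes are too small to be read against these shares.

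The transcript with the highest mean share differed between the libraries by 18.8 points for Esrp1, 14.5 for Cd44, 11.6 for Ctnnd1, 9.81 for Enah, 4.97 for Esrp2, 3.66 for Arhgef11 and 1.27 for Fgfr2. None of the 7 reached 20 points, where 15.1% of 8654 genes with at least 2 annotated transcripts and a mean of at least 1 TPM did, with a median gap of 5.71 points. Of Esrp2, Ctnnd1 and Arhgef11, the 3 members with a mean of at least 10 TPM, none did, against 8.50% of 4320 such genes. At these shares, 0 of 7 and 0 of 3 are near the background and say nothing particular of the members. A gap of a single model does not show that of a form: the IIIb share of Fgfr2 differed by 24.3 points, while its largest single model was a retained intron, and isoform 2 of Ctnnd1 went from 37.1% of the gene in replicate 1 to 0% in replicate 2.

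**Figure D5:**
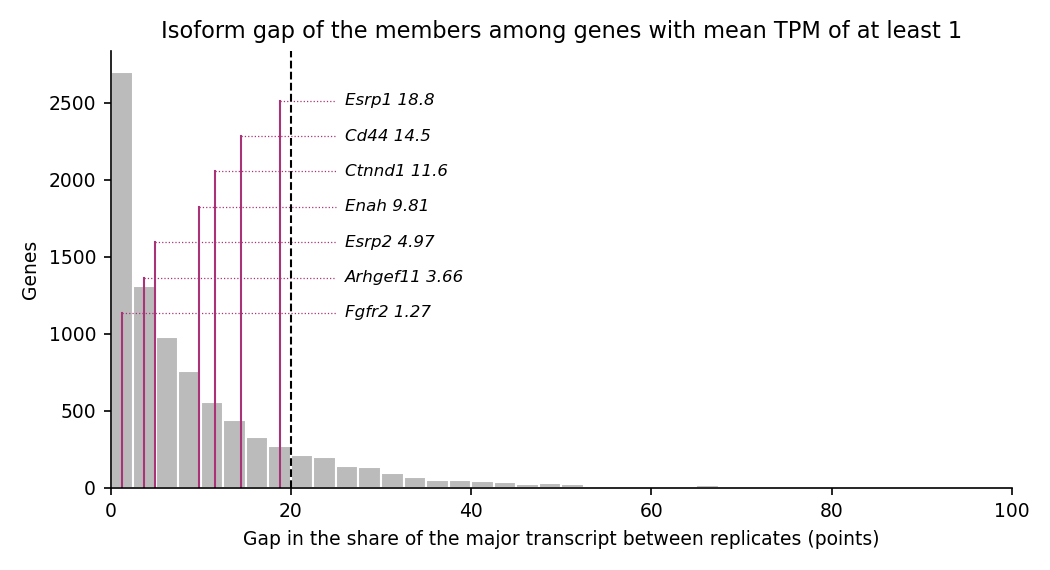
Gap between the libraries, in percentage points, in the share of each gene's major transcript, for 8654 genes with a mean of at least 1 TPM (bars), with the 7 members marked by purple lines. All 7 lie left of the dashed line at 20 points, from 1.27 for Fgfr2 to 18.8 for Esrp1.

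Most other splicing regulators listed were present in both libraries, and whether they acted on these exons here was not tested. Of the 23 further splicing regulators listed, Ptbp1, known to repress the IIIb exon, was the highest at 121 and 230 TPM, Rbm47, an epithelial RNA-binding protein, was next at 80.1 and 158 TPM, Hnrnpf followed at 39.4 and 83.6 TPM, and Rbfox2, a further regulator of several of these exons, was at 6.62 and 10.7 TPM. Mbnl1 was at 21.9 and 39.9 TPM and Qk, whose product is known for mesenchymal splicing, at 1.56 and 2.13 TPM. The regulators with a mean of at least 1 TPM, 20 of the 23, had a median 0.72 higher in replicate 2, which is 0.05 above the median gene. Rbfox1, Ptbp2 and Nova1, known from neurons and muscle, were under 1 TPM in both libraries.

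Transcription factors known to repress the epithelial program, and Esrp genes with it, were low with 1 exception. Zeb1 was at 0.86 and 0.98 TPM, Zeb2 at 2.19 TPM in both, Snai2 at 0.42 and 0.59 TPM and Twist2 at 2.13 and 2.74 TPM. Snai1 was higher, at 9.71 and 10.8 TPM, and Twist1 was at 0.3 and 3.32 TPM. Each of the 6 was below Esrp2 in both libraries, and Snai1 alone lay above Esrp1 in replicate 1 and, slightly, in replicate 2. The 8 listed factors of epithelial identity ranged widely. The 3 highest were above every repressor: Klf5 was at 127 and 378 TPM, Elf3 at 88 and 152 TPM and Klf4, the highest, at 142 and 479 TPM. Ovol2 (27.4 and 42.2 TPM), Ovol1 (19.2 and 35.7 TPM) and Ehf (19.9 and 27.7 TPM) were above every repressor too. Grhl2, which is known to maintain the epithelial program, was at 2.79 and 4.27 TPM, below Snai1 in both libraries, and its relative Grhl1 was at 0.39 and 0.26 TPM.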

How the data were processed

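Polyadenylated RNA of small intestine was measured in 2 libraries, 1 gene and 1 transcript table each. Per the text deposited beside the tables, the assembly was mm10 and the annotation GENCODE M4; for the aligner and the quantifier, the name is not given in the sources used here. The authors deposited expected counts (estimated, not whole), TPM with posterior mean TPM and credibility bounds whose level is not stated (a further deposited value on the TPM scale), FPKM, and the percent of a gene's TPM held by each transcript (IsoPct). No reads were analysed here.

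Exon structures and sequences came from GENCODE M21 (GRCm38, the same assembly as mm10), matched by transcript ID without version: 102 of the 104 annotated transcripts of the 7 genes were in the tables, 101 of them with equal length and 33 with the same version. A form's level is the summed TPM of the transcripts assigned to it by the exon or start they hold or lack. Depending on the gene, transcripts with no coding sequence, with few exons or not spanning the alternative exons were not assigned. The shares of 1 form against another leave these out. They also leave out Fgfr2 transcripts with neither exon and isoform 2 of Ctnnd1. Differences between libraries used log2(TPM + 1), replicate 2 over replicate 1, over Ensembl genes with a mean of at least 1 TPM. A gene counts as over 2-fold on that scale. Isoform gaps used genes with 2 or more transcripts. Exact (Clopper-Pearson) 95% intervals used rounded expected counts; for a gene with no count, 3 counts of a library's total allow up to 6.6e-06% of its fragments. With 1 group, no test between groups was made. The code behind the counts across genes was tested on simulated data with known changes; that checks the code, not the error of the counts.

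The members, gene lists and forms were chosen with earlier results of these data known. Named genes were drawn from the 7 members and their transcripts with an IsoPct of at least 5 or that alone carry a form. Others were the 3 highest of each list, list genes under 1 TPM, and any regulator, repressor or ligand, of which not all are printed. Fgfr1, Grhl2, Ovol1, Ovol2, Ehf, Arhgef12 and Tjp1 fall outside these rules and were chosen after their values were seen. Alternatives were FPKM, posterior means, counts, rescaled TPM, other filters and pseudocounts, complete coding transcripts, equal versions or lengths, and each library alone. Python 3.11.15, pandas 2.3.3, numpy 2.4.6 and scipy 1.17.1 were used. The sequence of 1 alternative exon is not reported here.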

Additional observations from a re-analysis of the deposited data

How the results depend on the processing

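Levels and shares rest on 2 libraries, and no test supports any difference between them. Over the single libraries, Esrp1 ranged from 4.35 to 10.3 TPM, Esrp2 from 22.1 to 25.3 TPM, the IIIb share of Fgfr2 from 27.4% to 51.8%, the variable share of Cd44 from 43.8% to 52.8%, the isoform 3 share of Ctnnd1 from 50.7% to 57.7%, the 11a share of Enah from 26.4% to 31% and the Arhgef11 share without the cassette from 70.9% to 77.1%. With 2 libraries, leaving out 1 moves a mean by less than their SD by construction, so these ranges say nothing of stability. Of the 35 alternatives that use both libraries, 23 moved a value by less than that SD or a count by less than 1.5 times.

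The mean level of Esrp2 was 28.7 in rescaled TPM (31.7 and 25.7), and by FPKM too it was the lower in replicate 2 (24.7 and 21.7). In CPM, from the expected counts with no division by length, Esrp1 was at 22.1 and Esrp2 at 64.5. Without transcripts whose length differs from the annotation, an alternative chosen after seeing the data, the mean IIIb share was 18.6%. With isoform 2 counted as long or as short, also chosen then, the mean isoform 3 share was 43.5% or 62%. From expected counts, which weigh long transcripts more, the mean 11a share was 22.2%. Genes past 2-fold numbered 2250 with a filter of 10 TPM, 1852 with a pseudocount of 5 and 1677 after rescaling (chosen after seeing the data), in place of 3437. Genes with a gap of 20 points or more numbered 1305 with a filter of 1 TPM and 3524 with no filter, in place of 367. The causes were not tested beyond what each setting changes by its construction. Shares from transcripts of equal version gave no value for Fgfr2, Cd44, Ctnnd1 or Enah, since at least 1 form of each had no such transcript. For Arhgef11 that setting was not run, and no exon 38 share could be computed under any setting. No paired analysis was possible because the labels give 1 group.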
